A study of Mus musculus with 14 samples.

Results

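Rab GTPases are the small GTP-binding proteins that label the membranes of a cell and direct the vesicles moving between them. Their transcripts were followed through oligodendrocyte differentiation in culture and after knockdown of Secisbp2l or Pdgfra. Members were the genes whose symbol is Rab followed by a number and at most 1 letter, with an FPKM of at least 1 in 2 or more of the 14 libraries. FPKM scales the sequenced fragments of a gene to transcript length and to library size. Of 57 genes with such a symbol, 44 met the threshold, out of 11874 genes that met it in a table of 23427. The member nearest to the threshold was Rab27b, whose second-highest library had an FPKM of 1.27, and the nearest gene outside it was Rab17, at 0.913.

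All libraries were poly(A) mRNA libraries from primary oligodendrocyte precursor cells (OPCs) of C57BL/6J mice, immunopanned from the cortex of pooled pups at postnatal day 7. They fell into 7 groups of 2 libraries: wild-type OPCs at Day0, and at Day3 wild-type cells that were non-treated, mock transfected, or given the non-targeting NC siRNA #1 or NC siRNA #2, with Secisbp2l knockdown cells (siSbp2l) and Pdgfra knockdown cells (siPdgfra). Small interfering RNAs (siRNAs) direct the degradation of a matching mRNA, and the cells were transfected with them in culture and harvested 3 days later. Each pair was described as independent cultures of pooled animals, so p-values measure the spread between cultures. Secisbp2l encodes a relative of the selenocysteine insertion factor Secisbp2, and Pdgfra the receptor through which OPCs receive the mitogen PDGF. The paper's methods describe differentiation as removal of PDGF-AA with addition of thyroid hormone. Effects of day and of medium therefore cannot be told apart between Day0 and Day3.

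Each Rab cycles between a GTP-bound form, which sits on one kind of membrane and recruits effectors such as tethers and motors, and a GDP-bound form that is withdrawn to the cytosol. Exchange factors load GTP, and GTPase-activating proteins end the active state. A differentiating oligodendrocyte makes large sheets of membrane and sends myelin lipids and proteins such as Plp through the Golgi and endosomes. Rab35, Rab27b, Rab3a and Rab31 have been studied in these cells for that reason. Messenger RNA level does not tell how much of a Rab is in its GTP-bound form.

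The 250 bases before the annotated transcription start are shown for 4 members on which the results turn: Rab33a, with the largest rise at Day3 and the largest fall under siSbp2l, Rab8b, with the largest fall at Day3, Rab31, which moved in opposite directions in the knockdowns, and Rab28, with the largest fall under siPdgfra. The sequences are from RefSeq on GRCm38.p6 (mm10), read 5′ to 3′ on the strand of the gene, at chrX:48519035-48519284 (plus strand), chr9:66919706-66919955, chr17:65772753-65773002 and chr5:41708180-41708429 (each minus strand). Capitals mark the letters TCAAAG or their reverse complement CTTTGA, found in the sites of TCF/LEF factors, the family to which the oligodendrocyte factor Tcf7l2 belongs.
Rab33a: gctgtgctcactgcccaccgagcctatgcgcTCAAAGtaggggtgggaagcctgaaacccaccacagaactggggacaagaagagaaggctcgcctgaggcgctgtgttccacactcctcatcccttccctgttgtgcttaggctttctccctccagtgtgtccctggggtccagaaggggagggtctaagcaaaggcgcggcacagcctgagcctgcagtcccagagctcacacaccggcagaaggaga
Rab8b: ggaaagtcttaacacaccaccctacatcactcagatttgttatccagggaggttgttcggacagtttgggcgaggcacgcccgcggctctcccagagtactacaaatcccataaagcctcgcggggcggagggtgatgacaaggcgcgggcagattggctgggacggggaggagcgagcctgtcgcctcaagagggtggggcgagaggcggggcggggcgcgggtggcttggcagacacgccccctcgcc
Rab31: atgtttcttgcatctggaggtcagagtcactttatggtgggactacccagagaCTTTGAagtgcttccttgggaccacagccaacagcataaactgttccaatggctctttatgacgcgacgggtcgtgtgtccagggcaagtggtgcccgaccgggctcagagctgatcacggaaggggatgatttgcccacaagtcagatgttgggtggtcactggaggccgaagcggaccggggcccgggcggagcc
Rab28: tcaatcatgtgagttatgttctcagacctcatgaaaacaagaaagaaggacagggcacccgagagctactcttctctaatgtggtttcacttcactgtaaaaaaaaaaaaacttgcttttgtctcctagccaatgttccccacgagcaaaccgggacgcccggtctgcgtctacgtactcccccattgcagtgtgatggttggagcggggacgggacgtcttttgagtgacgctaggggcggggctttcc
The window of Rab33a held 1 match, as did that of Rab31, and those of Rab8b and Rab28 held none. Over the family, RefSeq windows were matched for 36 of 42 members considered, some genes with several starts, and 7 of 47 windows (14.9%) held the motif, beside 13.8% of 32851 windows of all genes. The letters ACAAAG or CTTTGT, found in the sites of Sox factors, differ from the TCF/LEF letters in the first base alone, so that no position can match both. They stood in 1 of 47 Rab windows (2.13%) and in 16.5% of all windows. Rab windows had a median GC content of 60.8%, and all windows 52.4%. These are letter matches, not binding sites. For Rab33a and Rab28 the RefSeq start lies upstream of the gene start in the deposited annotation, whose coordinates are printed below. Their windows therefore do not abut those coordinates.

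The libraries held 6561101 to 31624823 fragments, recovered from the step size of the FPKM values, and 3 fragments of a 2 kb transcript came to an FPKM of 0.0474 to 0.229, counting error only. The siRNAs lowered their targets: Secisbp2l was at 3.91 and 3.82 in siSbp2l against 135 to 255 in the 8 Day3 control libraries, and Pdgfra at 3.30 and 2.69 in siPdgfra against 32.4 to 72.1. The summed FPKM of 8 oligodendrocyte markers was 787 to 867 at Day0, 7036 to 10310 in Day3 controls, 2822 and 3021 in siSbp2l, and 6054 and 5271 in siPdgfra. All 8 were higher at Day3 than at Day0, all 8 were lower in siSbp2l, and 6 were lower and 1 higher in siPdgfra than in the controls (limma, adjusted p under 0.05). The sum of 6 OPC markers was 2041 to 2341 at Day0, 751 to 1138 in Day3 controls, 1052 and 1072 in siSbp2l, and 1024 and 911 in siPdgfra. Of these 5 were lower and 1 higher at Day3, 2 were higher in siSbp2l, among them Pdgfra at 150 and 144, and 3 were lower and 1 higher in siPdgfra, whose siRNA targets Pdgfra. Among other cell types, 5 astrocyte markers summed to 10.2 to 10.7 at Day0, 54.5 to 103 in Day3 controls, 65.3 to 65.4 in siSbp2l and 27.5 in siPdgfra. Gja1 and Aqp4 reached at most 0.0523 and 0.608, and of the 3 that were tested all 3 were higher at Day3 and all 3 lower in siPdgfra, Gfap going from 0.677 and 0.755 at Day0 to 36.8 to 79.2 in Day3 controls and 17.97 and 18.05 in siPdgfra. The 6 neuronal markers summed to 44.5 to 48.0 at Day0, 52.8 to 283 in Day3 controls, 206 in siSbp2l and 242 to 245 in siPdgfra, most of it Tubb3. The sum hides opposite changes: 1 of the 6 was higher and 4 were lower in Day3 non-treated than in Day0 libraries, with a median log2 fold change of -0.74. Of the 5 tested within Day3, 3 were higher and 1 lower in siSbp2l, and 2 were higher and 2 lower in siPdgfra. The 6 microglial markers summed to 2.42 to 2.87, 1.86 to 10.4, 3.73 to 4.92 and 6.89 to 8.31 in the same order. C1qa, Aif1 and Cx3cr1 were at or near 0, and P2ry12 carried the higher sums, at 0.690 and 0.513 at Day0, 9.46 and 8.78 under NC siRNA #1 and 7.57 and 6.57 in siPdgfra. Markers of endothelium and of pericytes and fibroblasts reached at most 0.2005. The part of these mixtures in the Rab values was not tested, and in bulk libraries fewer cells of a type and less RNA per cell cannot be told apart. The non-treated libraries differed most from each other, with an SD of the log2 difference over Rabs of 0.46 against 0.098 to 0.14 in the other pairs.

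Rab transcripts made up a larger share of the measured RNA at Day3 than at Day0. The 44 members summed to an FPKM of 1817 and 1787 at Day0, or 0.449% and 0.445% of all FPKM, and to 2316 to 2773 at Day3, or 0.635% to 0.805%. The mean over the 14 libraries was highest for Rab7, which takes late endosomes to lysosomes, at 217, followed by Rab10, a Rab of exocytic and membrane-adding carriers, at 202, Rab31, which works between the trans-Golgi and endosomes, at 177, and Rab6a, which moves membrane within and out of the Golgi, at 148. By compartment, the 6 Rabs of early endosomes had the highest median of mean FPKM, 82.4, ahead of 53.7 for the 12 of the ER and Golgi and 38.5 for the 7 of recycling endosomes. The 7 Rabs of carriers to the surface and cilium had a median of 26.2, and the 7 of late endosomes and lysosomes 16.1, although Rab7 belonged to that group. Secretion was represented by Rab3a at a mean of 64.4 and Rab27b at 0.799, and Rab28, Rab40b and Rab40c were placed in no compartment. Each other Rab was counted in 1 group by an assigned label, although some act on other routes too. Rab12 was counted with the carriers to the surface and cilium, and Rab39b with late endosomes and lysosomes.

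**Figure D1:**
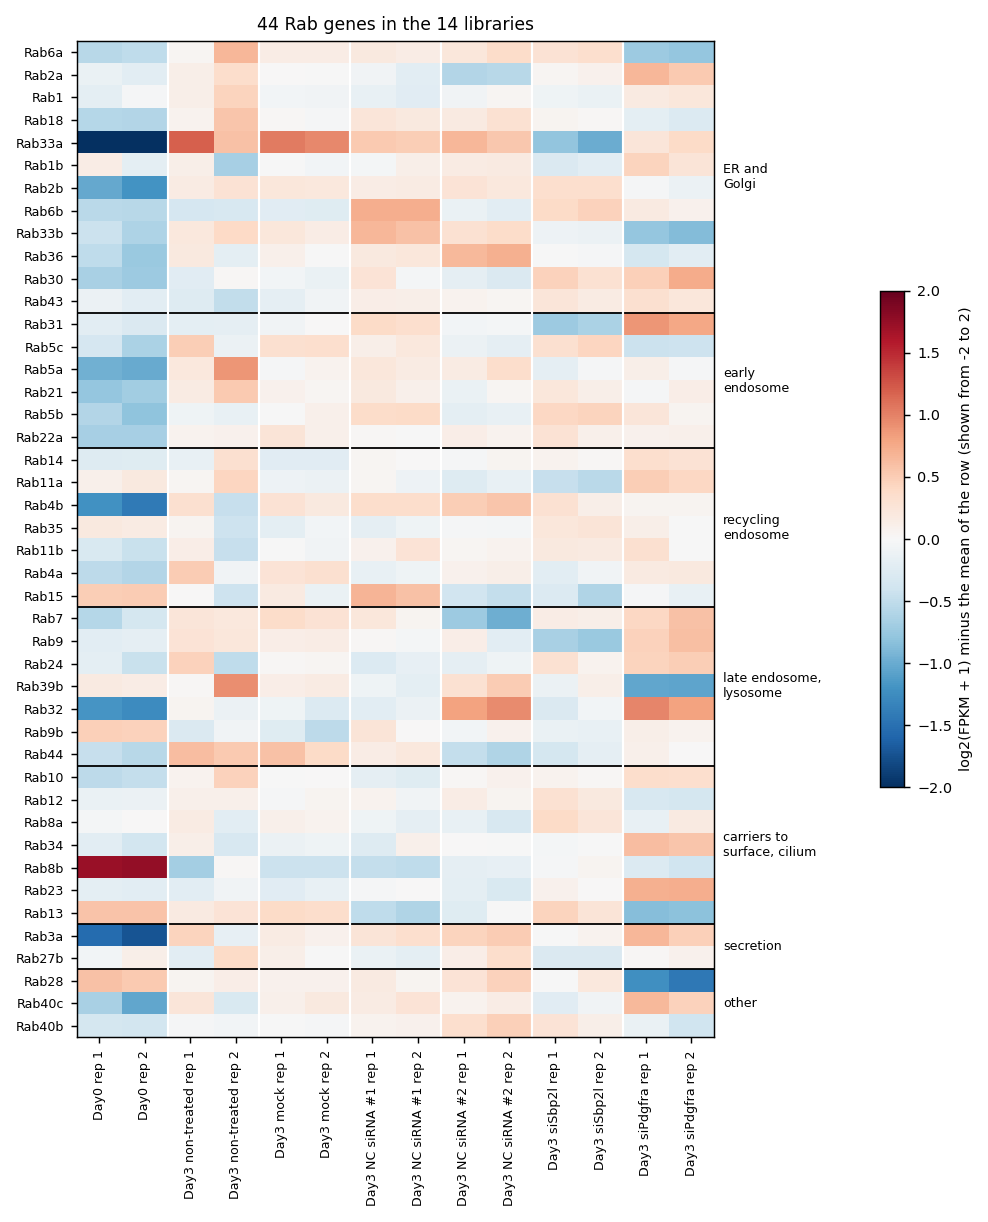
Each row is 1 of the 44 Rabs and each column 1 of the 14 libraries. Colour gives log2(FPKM + 1) minus the row's mean over the libraries, from -2 (blue) to 2 (red), with rows ordered by compartment and mean level. The Day0 columns stand apart for Rab33a and Rab3a, which were low there, and for Rab8b, which was high. The siPdgfra columns stand apart for Rab28, and are lowest for Rab33b, which was low at Day0 too.

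Differentiation was asked about by comparing Day3 non-treated with Day0 libraries, with limma on log2(FPKM + 1), a scale that understates the change of low genes, and Benjamini-Hochberg adjustment over all genes tested. Rises and falls are given as log2 fold changes on this scale. Most Rabs rose: 27 of 44 were higher and 6 lower at an adjusted p under 0.05, where 28.4% of all genes were higher and 38.6% lower. The median log2 fold change was 0.40 over the Rabs and -0.12 over all genes. At a change of 2-fold or more, 8 were higher and 1 lower, against 11.4% and 15.2% of all genes. With the mock group in place of the non-treated one, 24 were higher and 4 lower, beside 29.7% and 36.6% of all genes, and the median was 0.34. Of the 12 Rabs of the ER and Golgi 10 were higher and 0 lower, and of the 6 of early endosomes 5 were higher and 0 lower, whereas the 7 of carriers to the surface split into 2 higher and 2 lower. Fitting only the groups compared left 21 Rabs past the test in place of 33. Rab27b, Rab32, Rab40b and Rab44 were below an FPKM of 1 in both Day0 libraries and so met the threshold through Day3 libraries alone. Among the 40 other members 24 were higher and 6 lower, and at 2-fold 6 were higher and 1 lower.

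Among ER and Golgi Rabs, Rab33a changed most. Rab33a, a Golgi and post-Golgi Rab known from growing axons (chrX:48519470-48530232, plus strand), had an FPKM of 13.0 and 11.2 at Day0, 159 and 105 in non-treated and 144 and 136 in mock libraries. No Day3 library overlapped the Day0 pair, also under the knockdowns. The mean of the non-treated pair was 10.9 times that of Day0, and the log2 fold change was 3.32 ± 0.16 (SE), adjusted p = 1.36e-08. Rab2b, which acts between the ER and Golgi, stood at 11.1 and 9.72 at Day0 and 26.3 and 28.9 in non-treated cells (log2 fold change 1.33 ± 0.09 (SE), adjusted p = 1.44e-07). Its paralog Rab2a, at 128 and 121 and then 152 and 180.0, rose less (log2 fold change 0.41, adjusted p = 0.00418, and 0.17 for mock). Rab6a went from 96.4 and 99.4 to 145 and 224, where the non-treated replicates were far apart but above both Day0 libraries (log2 fold change 0.88, adjusted p = 0.00046), and Rab6b, its paralog of nervous tissue, from 10.3 and 10.2 to 11.98 and 12.1 (log2 fold change 0.21, adjusted p = 0.0389). Rab33b, a Golgi Rab that also binds the autophagy protein Atg16l1, rose by 0.83, Rab18 of lipid droplets and the ER by 0.88, and Rab1, which carries cargo from the ER to the Golgi, by 0.38 (adjusted p = 1.87e-05, 0.000121 and 0.0124). For mock the log2 fold change of Rab1 was 0.03, its mock libraries at 126 and 125 lying between the Day0 values of 115 and 130. Rab1b and Rab43 were the members of this compartment that did not pass, with log2 values of -0.24 and -0.21.

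Of the Rab5 proteins, which drive fusion of early endosomes, Rab5a rose most. Rab5a had an FPKM of 48.4 and 46.7 at Day0, 110.1 and 176 in non-treated and 94.1 and 100.2 in mock libraries, and its log2 fold change was 1.53 ± 0.17 (SE), adjusted p = 1.41e-05 (1.02 for mock). All Day3 values were above both Day0 values, and the non-treated pair spanned more than the mock pair. Rab5b and Rab5c rose by 0.58 and 0.68 (adjusted p = 0.00027 and 0.00412). Rab21, a Rab of integrin endocytosis, went from 36.6 and 38.7 to 70.7 and 91.3 (log2 fold change 1.07 ± 0.12 (SE), adjusted p = 1.44e-05), and Rab22a, another early endosomal Rab, rose by 0.75. Rab31 was the exception: it stood at 145 and 137 at Day0 and 146 and 148 in non-treated cells, and its difference did not pass (log2 fold change 0.06, adjusted p = 0.562).

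Of the 7 recycling endosome Rabs 3 were higher and 2 lower. Rab4b, of the fast recycling route, stood at 17.4 and 15.0 at Day0, 52.3 and 30.2 in non-treated and 51.3 and 48.1 in mock libraries (log2 fold change 1.25 ± 0.19 (SE), adjusted p = 0.000148), and Rab4a rose by 0.77. Rab11a, of the slow route, stood at 67.5 and 72.1 and 64.2 and 84.9 and did not pass (log2 fold change 0.08, adjusted p = 0.577), nor did Rab11b (log2 fold change 0.21, adjusted p = 0.29). Rab14, which works between the Golgi and endosomes, rose by 0.34 (adjusted p = 0.0363), from 102 and 103 to 110 and 152 in non-treated libraries. Its mock libraries, at 104 and 104, stood close to Day0. Rab35, which guides recycling and the release of Plp-bearing exosomes, was lower at Day3, 39.5 and 28.3 against 43.97 and 42.8 (log2 fold change -0.37 ± 0.13 (SE), adjusted p = 0.0294), as was Rab15, a Rab enriched in neural tissue (-0.70, adjusted p = 0.00244) at an FPKM of at most 2.34.

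Among late endosomal Rabs, Rab7 rose from 139.7 and 162 to 244 and 239.8 (log2 fold change 0.68 ± 0.12 (SE), adjusted p = 0.00034), and Rab9, which returns mannose 6-phosphate receptors to the Golgi, from 33.0 and 33.6 to 46.5 and 44.9 (log2 fold change 0.45, adjusted p = 0.00385). Rab32, of lysosome-related organelles, went from 0.400 and 0.325 to 2.30 and 1.94 (log2 fold change 1.19 ± 0.12 (SE), adjusted p = 5.34e-06), and Rab44, a large Rab with calcium-binding EF hands, from 0.601 and 0.498 to 2.38 and 2.17 (log2 fold change 1.08 ± 0.11 (SE), adjusted p = 3.76e-06). Both met the FPKM threshold only through Day3 libraries, in which they are higher, so that their rises are given as a description, and the ratio of their means was 5.85 and 4.14. Rab9b was lower (log2 fold change -0.65, adjusted p = 0.000656). Rab24 and Rab39b did not pass.

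Rab8b had the largest fall. Rab8b, which with Rab8a brings exocytic carriers to the surface and to cilia (chr9:66843664-66919705, minus strand), was at 55.3 and 56.7 at Day0, 9.64 and 16.4 in non-treated and 11.6 and 11.6 in mock libraries. Its 12 Day3 values ran from 9.64 to 16.7, well below both Day0 libraries, and the log2 fold change was -2.07 ± 0.17 (SE), adjusted p = 1.03e-06, with the Day0 mean 4.31 times the non-treated mean. Rab8a showed no such fall, at 45.3 and 46.7 and then 52.1 and 40.1 (log2 fold change -0.01 ± 0.14 (SE), adjusted p = 0.967). The difference between the paralogs was not tested. Rab10 rose from 138 and 143 to 208 and 275 (log2 fold change 0.76, adjusted p = 0.00015) and Rab12, which sends transferrin receptor to lysosomes, by 0.22 (adjusted p = 0.0393), while Rab13, a Rab of junctional carriers, fell by 0.34 (adjusted p = 0.0137). The values of Rab23 and Rab34, Rabs tied to Hedgehog signalling and the cilium, did not pass (0.07 and 0.19).

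Of the secretory Rabs, Rab3a, a Rab of regulated exocytosis best known from synaptic vesicles, was at 19.5 and 17.0 at Day0, 80.4 and 52.1 in non-treated and 65.8 and 62.6 in mock libraries. Every Day3 library exceeded both Day0 libraries, by 3.62 times for the means of the non-treated group (log2 fold change 1.77 ± 0.16 (SE), adjusted p = 2.52e-06). Rab27b, which docks secretory vesicles and exosomes, stayed between 0.451 and 1.33 in all 14 libraries and did not pass (log2 fold change 0.06, adjusted p = 0.774). Rab28, a Rab linked to cilia and photoreceptor disc turnover, was lower at Day3, 24.7 and 26.0 against 36.2 and 34.4 (log2 fold change -0.46 ± 0.11 (SE), adjusted p = 0.00308). Rab40b and Rab40c, whose SOCS box ties them to ubiquitin ligases, rose by 0.32 and 0.82 (adjusted p = 0.0171 and 0.00162). Rab40b went from 0.526 and 0.524 to 0.935 and 0.879, and reached an FPKM of 1 only in siRNA-treated Day3 libraries. Its rise is given as a description. Rescaling the libraries moved the median of all genes from -0.12 to -0.03 (median of ratios) or 0.00 (upper quartile) and left 27 Rabs higher and 4 lower under both. The calls of Rab13 and Rab35 were the ones lost, and they were lost as well without either Day0 library. Among the smaller rises, Rab1, Rab6b, Rab12, Rab14 and Rab40b each fell short of the threshold without at least 1 library, with log2 fold changes of 0.10 to 0.34.

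**Figure D2:**
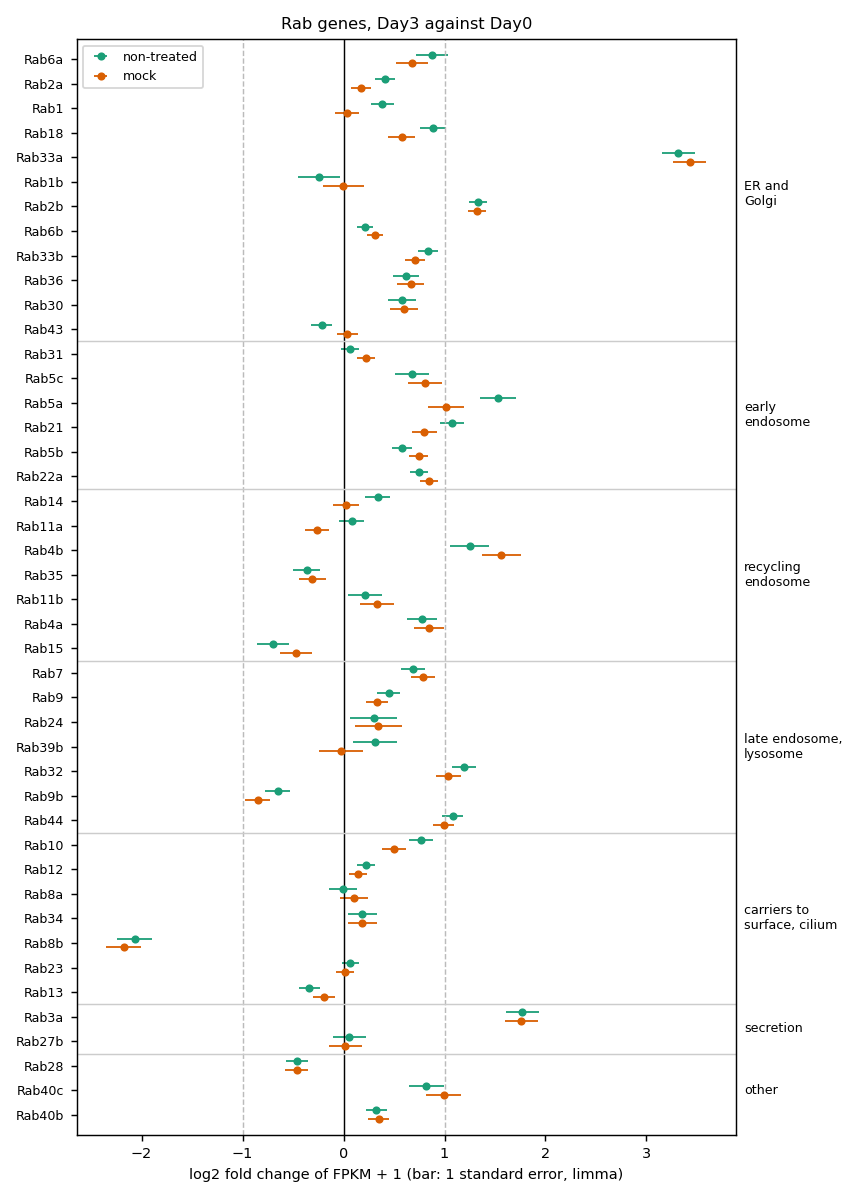
Points give the log2 fold change of each of the 44 Rabs on the log2(FPKM + 1) scale, Day3 non-treated and Day3 mock each against Day0 (2 libraries a group, shared Day0 pair), with bars of 1 SE and dashed lines at -1 and 1. Rab33a lies highest at 3.32 and 3.43, Rab8b lowest at -2.07 and -2.18, and most Rabs lie above 0.

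**Figure D3:**
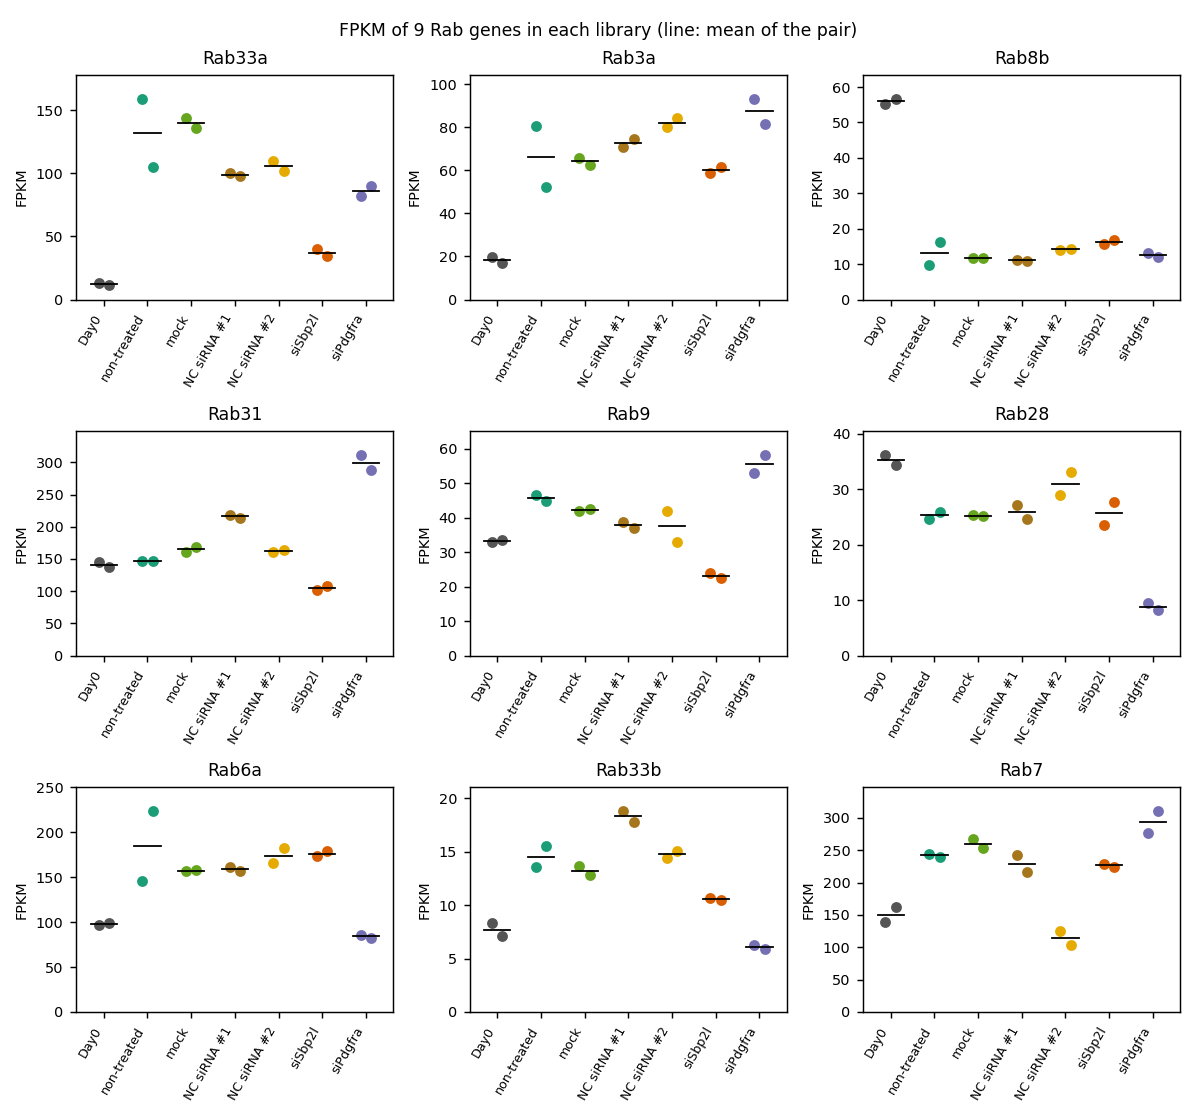
FPKM in each of the 14 libraries for 9 Rabs, 1 panel a gene with its own axis from 0. Points are libraries and lines the mean of each pair. Rab33a is low at Day0 and in siSbp2l, Rab8b is high at Day0 alone, Rab28, Rab6a and Rab33b are lowest in siPdgfra, Rab31 is lowest in siSbp2l and highest in siPdgfra, and Rab7 is low at Day0 and under NC siRNA #2.

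The effect of Secisbp2l knockdown was read against the mean of the 4 Day3 control groups. It moved few Rabs far: 9 of 44 were higher and 8 lower at an adjusted p under 0.05, beside 35.5% and 17.9% of all genes, and the median was 0.03 over the Rabs and 0.15 over all genes. Only Rab33a passed 2-fold, and it was lower, with 0 higher, beside 3.12% of genes higher and 4.08% lower. The split depended on scaling: with the all-gene median moved from 0.15 to 0.00 by median-of-ratios scaling it was 2 higher (Rab5b and Rab6b) and 15 lower, and at a median of 0.04 by upper-quartile scaling 4 higher and 14 lower. Rab5b and Rab6b also differed between the NC siRNAs. Without the non-treated group 15 were higher and 15 lower, and without siSbp2l replicate 1 or 2 the number past the test in either direction fell from 17 to 8 or 11. Compared with each control group in turn, 0 Rabs were higher and 4 lower against all 4 (Rab33a, Rab31, Rab9 and Rab33b), beside 13.9% and 7.94% of all genes, and of these Rab33a alone was 2-fold lower against each, beside 2.03% of genes lower and 1.19% higher.

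Rab33a was lowest among Day3 cells in siSbp2l. Its FPKM was 39.9 and 34.5 there, against 159 and 105 in non-treated, 144 and 136 in mock, 99.99 and 98.4 in NC siRNA #1 and 110.2 and 102 in NC siRNA #2 libraries. The knockdown pair lay below every other Day3 library and above Day0, and its mean was 31.2% of that of the 4 control groups (log2 fold change -1.64 ± 0.13 (SE), adjusted p = 6.67e-06). Against single control groups the log2 fold change ran from -1.89 (mock) to -1.39 (NC siRNA #1). All 8 oligodendrocyte markers were lower in the same libraries. The other ER and Golgi Rabs showed smaller differences, with Rab33b lower (10.7 and 10.5 against 12.8 to 18.8 in controls, log2 fold change -0.48, adjusted p = 0.000581), Rab30 and Rab6b higher by 0.46 and 0.42, and Rab6a, Rab2a and Rab1 not past (0.08, 0.18 and -0.11). Rab6b differed between the non-targeting siRNAs themselves, at 26.4 and 26.2 under #1 and 13.95 and 13.3 under #2, so that siSbp2l, at 20.5 and 21.7, lay between its controls.

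Among endosomal Rabs, Rab9 and Rab31 fell. Rab9 was at 24.0 and 22.4 in siSbp2l, and its 8 control libraries ran from 32.9 to 46.5 without overlap (log2 fold change -0.78 ± 0.09 (SE), adjusted p = 7.45e-05, 56.8% of the control mean). Rab31 was at 101 and 109, with 146 and 148 in non-treated, 160.5 and 169 in mock, 219 and 213 in NC siRNA #1 and 161 and 164 in NC siRNA #2 libraries (log2 fold change -0.70 ± 0.07 (SE), adjusted p = 3.29e-05). Its controls were themselves spread, and the log2 fold change ran from -0.48 against non-treated to -1.03 against NC siRNA #1. Rab11a was lower by 0.48 (adjusted p = 0.00294), at 45.0 and 42.6 against 52.2 to 84.9. Rab15, Rab44 and Rab32, all at an FPKM of at most 5.21, were lower with log2 values of -0.44, -0.44 and -0.30, and their control groups differed among themselves: siSbp2l was 2-fold lower than NC siRNA #1 for Rab15 (-1.07) and than NC siRNA #2 for Rab32 (-1.05). Rab15, at 0.726 and 0.369, and Rab44, at 0.721 and 0.943, were below an FPKM of 1 in both siSbp2l libraries. Their falls are given as a description. Rab5b rose by 0.40 (adjusted p = 0.00132), at 64.3 and 65.8. NC siRNA #1 stood at 62.4 and 62.9, and against it alone the log2 fold change of Rab5b was 0.05, while its other controls ran from 41.97 to 51.5. Rab5a, Rab7 and Rab3a did not pass as deposited (-0.36, 0.17 and -0.23). The null for Rab3a depended on scaling. Under either rescaling both secretory Rabs, Rab3a and Rab27b, were lower past the test, with medians of -0.40 (median of ratios) and -0.37 (upper quartile). Rab27b, at 0.451 and 0.460 in siSbp2l, reached an FPKM of 1 only in control libraries, non-treated replicate 2 (1.33) and NC siRNA #2 replicate 2 (1.27). Its fall and the medians that include it are given as a description, and it is among the Rabs counted lower under the rescalings. Of the early endosomal Rabs, 2 in place of 1 were then lower.

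The 7 Rabs grouped as carriers to the surface and cilium all had log2 values above 0 in siSbp2l as deposited, with 4 past the test, where 35.5% of all genes were higher and the all-gene median was 0.15. These were Rab8a 0.39, Rab13 0.37, Rab12 0.20 and Rab23 0.20. Under median-of-ratios scaling 5 of 7 stayed above 0 and 0 passed, and under upper-quartile scaling 5 and 1 (Rab13). As deposited, Rab35 was higher by 0.36 and Rab43 by 0.28, and Rab10, Rab27b and Rab28 did not pass (0.02, -0.34 and -0.06). The calls of Rab8a, Rab12, Rab23, Rab35 and Rab43 were lost under both scalings and without either siSbp2l library, those of Rab13, Rab30, Rab32 and Rab44 without siSbp2l replicate 1, and that of Rab15 without replicate 2. Those of Rab12, Rab23 and Rab32 were also lost without some of the control libraries.

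Pdgfra knockdown moved Rabs in both directions, in shares not far from those of all genes. Of 44, 14 (31.8%) were higher and 12 (27.3%) lower than the mean of the same 4 control groups, beside 32.4% and 23.0% of all genes, and the median was 0.11 over the Rabs and 0.09 over all genes. The 12 include Rab40b, which was below an FPKM of 1 in both siPdgfra libraries, at 0.777 and 0.483. Either rescaling made the split 12 higher and 12 lower. At 2-fold 3 were lower (Rab28, Rab39b and Rab33b) and 0 higher, beside 4.03% and 3.97% of all genes. Against each of the 4 control groups, 5 were higher (Rab2a, Rab23, Rab30, Rab31 and Rab34) and 5 lower (Rab6a, Rab12, Rab28, Rab33b and Rab39b), beside 12.6% and 9.79%, and 2 of the lower ones, Rab28 and Rab33b, were 2-fold lower against each, beside 1.84% of genes lower and 1.77% higher. Both siPdgfra libraries lay above all 8 control libraries for 10 Rabs (22.7%) and below them for 12 (27.3%), where 26.5% and 17.5% of all genes did so.

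Rab28 had the largest fall. Rab28 (chr5:41624976-41708155, minus strand) was at 9.51 and 8.20 in siPdgfra, against 24.7 and 26.0 in non-treated, 25.4 and 25.2 in mock, 27.1 and 24.6 in NC siRNA #1 and 28.9 and 33.2 in NC siRNA #2 libraries. The 8 control values were close together, siSbp2l at 23.6 and 27.7 was among them, and the siPdgfra mean was 32.9% of theirs (log2 fold change -1.50 ± 0.09 (SE), adjusted p = 1.07e-06). Rab39b, a brain-enriched Rab of the secretory and autophagic routes, was at 6.87 and 6.83 against 13.2 to 29.7 in controls (log2 fold change -1.27 ± 0.18 (SE), adjusted p = 0.000265). Its fall was 2-fold against 3 control groups and -0.91 against NC siRNA #1, and its non-treated libraries were 15.5 and 29.7.

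The Rabs of the ER and Golgi went both ways in siPdgfra, with 3 higher and 6 lower of 12, beside 32.4% and 23.0% of all genes. Among these calls, that of Rab33a was lost without either siPdgfra library. That of Rab43 was lost without siPdgfra replicate 1, and those of Rab2b and Rab18 without replicate 2. Rab33b was at 6.28 and 5.88, with 13.6 and 15.5 in non-treated, 13.6 and 12.8 in mock, 18.8 and 17.8 in NC siRNA #1 and 14.4 and 15.1 in NC siRNA #2 libraries (log2 fold change -1.19 ± 0.08 (SE), adjusted p = 1.39e-06, 40.0% of the control mean). Its 2-fold call against mock (-1.01) was lost without mock replicate 1 or siPdgfra replicate 2, with a log2 fold change of -0.97 in each case. It was also below both Day0 libraries, at 8.28 and 7.15. Rab6a was at 85.4 and 82.6 against 145 to 224 in controls (log2 fold change -0.99 ± 0.13 (SE), adjusted p = 0.000163, 49.8%), below its Day0 values of 96.4 and 99.4 as well. Its fall passed 2-fold against non-treated (-1.09) and NC siRNA #2 (-1.04) and not against mock (-0.90) or NC siRNA #1 (-0.91), and its paralog Rab6b did not pass (log2 fold change 0.14, adjusted p = 0.119). Rab33a was lower (log2 fold change -0.44, adjusted p = 0.0177), at 82.2 and 90.3 and so below all 8 control values, together with Rab36, Rab18 and Rab2b (-0.52, -0.43 and -0.28). In the other direction, Rab2a reached 222 and 203 against 92.8 to 180.0 in controls (log2 fold change 0.71 ± 0.09 (SE), adjusted p = 7.49e-05), the highest of all 14 libraries, and Rab30 rose by 0.69 and Rab43 by 0.35 (adjusted p = 0.000719 and 0.00621).

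Rab31 was higher in siPdgfra than anywhere else. It was at 312 and 287, above the highest control of 219 and 213 under NC siRNA #1 and the other controls at 146 to 169 (log2 fold change 0.81 ± 0.07 (SE), adjusted p = 1.17e-05, 174% of the control mean). Of the single control groups, only against non-treated did the rise reach 2-fold (1.02). Rab5c, by contrast, was lower, at 105 and 106 against 125 to 200.4 in controls (log2 fold change -0.56, adjusted p = 0.00504), and Rab5a and Rab5b did not pass (-0.21 and 0.12).

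Of the late endosomal Rabs, Rab7, Rab9, Rab24 and Rab32 were higher, and Rab39b was lower. Rab7 was at 276 and 311, against 244 and 239.8 in non-treated, 267 and 254 in mock, 242 and 216 in NC siRNA #1 and 124 and 104 in NC siRNA #2 libraries. The NC siRNA #2 pair was far below the others, and the log2 fold change of 0.54 ± 0.09 (SE) against all controls (adjusted p = 0.00078) was 1.35 against NC siRNA #2, 0.27 against non-treated and 0.17 against mock. Rab32 was at 5.21 and 4.53 and its NC siRNA #2 pair at 4.53 and 5.12, so that its log2 fold change was 1.07 relative to mock and 1.05 relative to NC siRNA #1, but 0.01 relative to NC siRNA #2. Rab9 rose by 0.44, and Rab11a, of the recycling route, by 0.48 (adjusted p = 0.00265 and 0.00272).

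Rabs of the surface and cilium went both ways. Rab23, a negative regulator of Hedgehog signalling, was at 27.1 and 27.4 in siPdgfra against 12.9 to 16.2 in controls (log2 fold change 0.87 ± 0.07 (SE), adjusted p = 7.09e-06), and Rab34, required to form some cilia, at 40.0 and 38.0 against 20.4 to 27.9 (log2 fold change 0.65 ± 0.12 (SE), adjusted p = 0.00116). Rab13 was at 2.70 and 2.80 and overlapped no control, although these ranged from 3.43 to 7.77 (log2 fold change -0.82 ± 0.09 (SE), adjusted p = 3.84e-05), and of the single control groups it was 2-fold lower than non-treated and mock (-1.06 and -1.21), while against NC siRNA #1, at 3.69 and 3.43, it did not pass (log2 fold change -0.28, adjusted p = 0.0642). Rab10 rose by 0.32 (adjusted p = 0.0203), and Rab8a, Rab8b, Rab35, Rab3a, Rab1 and Rab27b did not pass (0.09, 0.02, 0.18, 0.30, 0.20 and -0.0037). The calls of Rab10, Rab14, Rab24 and Rab33a were lost without either siPdgfra library, those of Rab40c and Rab43 without replicate 1, and those of Rab2b, Rab18 and Rab40b without replicate 2. Rab10 and Rab14 also fell short on either rescaling, and Rab24 without some of the control libraries.

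**Figure D4:**
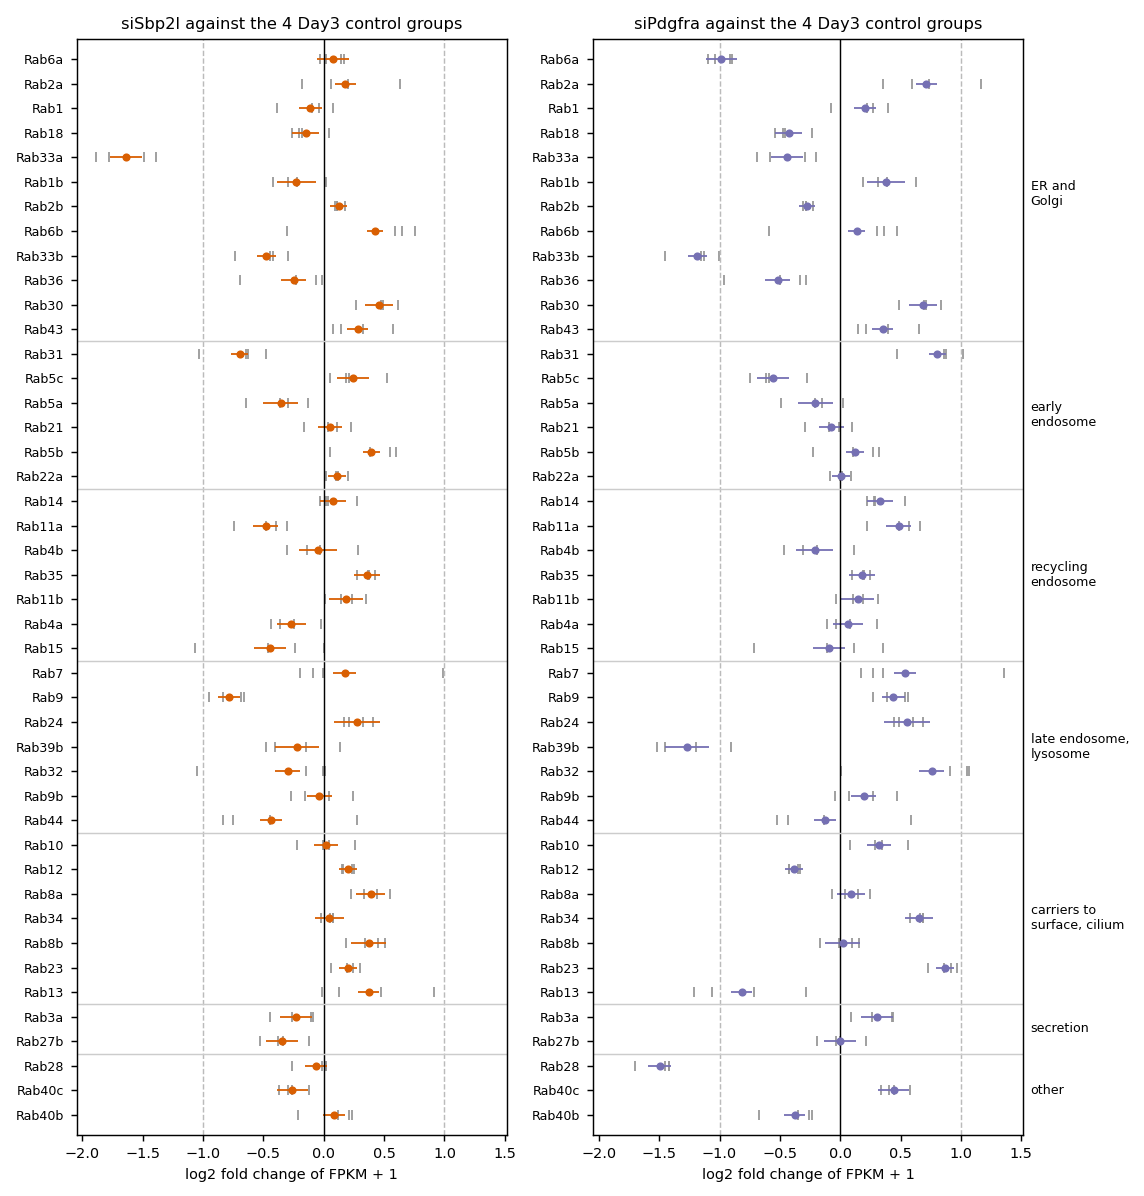
Log2 fold change of each of the 44 Rabs in siSbp2l (left) and siPdgfra (right) against the mean of the 4 Day3 control groups on the log2(FPKM + 1) scale, with bars of 1 SE, grey ticks for the value against each single control group, and dashed lines at -1 and 1. Both panels share the control libraries. Rab33a is lowest on the left at -1.64, and Rab28, Rab39b and Rab33b on the right at -1.50, -1.27 and -1.19.

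Because the knockdowns share their controls, they were also compared directly. Of 44 Rabs, 11 were higher and 14 lower in siSbp2l than in siPdgfra, beside 28.5% and 23.4% of all genes, and at 2-fold 4 were higher and 4 lower, beside 6.94% and 6.73%. Rab31 differed most, at 101 and 109 in siSbp2l and 312 and 287 in siPdgfra (log2 fold change -1.50 ± 0.09 (SE), adjusted p = 1.16e-06), followed among the lower by Rab9 (-1.22), Rab33a (-1.19) and Rab32 (-1.06). Rab28 (1.44), Rab13 (1.19), Rab6a (1.06) and Rab39b (1.04) were the 4 that were higher in siSbp2l. Rab11a was lower by 0.96 (adjusted p = 0.000165). The late endosomal Rabs leaned to siPdgfra, with 4 of 7 lower in siSbp2l (Rab7, Rab9, Rab32 and Rab44) and Rab39b higher. The calls of Rab7 and Rab44 were lost without either siSbp2l library.

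The controls gave the size of difference seen without a targeted knockdown. Mock and non-treated cells did not differ in any Rab at an adjusted p under 0.05 in limma (0 of 44, 5 at an unadjusted p under 0.05), beside 0.215% of all genes. NC siRNA #1 against NC siRNA #2 had 7 Rabs higher and 3 lower, beside 10.1% and 10.8% of all genes, with 1 each at 2-fold, beside 2.36% and 1.63%. Those were Rab15, at 2.34 and 2.12 under #1 and 0.588 and 0.487 under #2 (log2 fold change 1.07 ± 0.17 (SE), adjusted p = 0.00151), and Rab32, at 1.75 and 1.92 and 4.53 and 5.12 (log2 fold change -1.04 ± 0.13 (SE), adjusted p = 0.000333). Rab7 came next, just under 2-fold, at 242 and 216 and 124 and 104 (log2 fold change 1.00 ± 0.12 (SE), adjusted p = 0.000208), its NC siRNA #2 mean being 46.9% of that of the other 3 control groups. Rab6b (0.90) and Rab44 (0.72) were higher under #1 as well, as was Rab5b, at 62.4 and 62.9 under #1 and 41.97 and 43.1 under #2. Taking the NC siRNAs together against non-treated and mock cells, 8 Rabs were higher and 5 lower, beside 16.3% and 11.8%, and 0 reached 2-fold, beside 1.28%. Rab6b (0.56) and Rab32 (0.46) were highest, each through 1 of the siRNAs, and Rab44 (-0.71), Rab13 (-0.64) and Rab7 (-0.63) lowest. Either rescaling changed that split to 7 higher and 8 lower. Without non-treated replicate 1 or 2 the counts past the test rose to 21 and 20 between the NC siRNAs, and to 29 and 23 against cells without siRNA. They fell to 6 without either NC siRNA #1 library or NC siRNA #2 replicate 2, and to 8 in the latter comparison without NC siRNA #1 replicate 1 or NC siRNA #2 replicate 2.

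The genes that load, end and read the Rab cycle were described from lists of 123 genes, of which 101 were tested. At Day3 against Day0, 45 were higher and 21 lower, with a median of 0.23, where 28.4% of all genes were higher and 38.6% lower with a median of -0.12. Of 8 prenylation and recycling genes 4 were higher and 1 lower, of 25 exchange factors 7 and 8, of 35 GTPase-activating proteins 17 and 7, and of 33 effectors 17 and 5. Rabggta, a subunit of the enzyme that prenylates Rabs, rose by 1.07. Osbpl1a, an oxysterol-binding effector of Rab7, rose by 3.04, Rims2, a Rab3 effector of exocytosis, by 2.62, and Rab3il1, an exchange factor for Rab3, by 1.03. Rab3il1, at 0.695 and 0.517 at Day0, met the FPKM threshold through Day3 libraries alone. Its rise is given as a description, and it is among the 45 counted higher. Optn, a Rab8 effector, rose by 1.65 and Rab11fip2, a Rab11 effector, by 1.52. Among GTPase-activating proteins, Usp6nl, which acts on Rab5, rose by 1.90, and Tbc1d14 and Tbc1d23 by 1.81 and 1.46. Tbc1d1, which acts on Rab8a and Rab10, fell to a log2 fold change of -2.21 and Tbc1d9 to -1.15.

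In siSbp2l, 28 of the 101 were higher and 25 lower, beside 35.5% and 17.9% of all genes, and 2 were 2-fold changed against all 4 control groups, beside 3.23% of all genes. Osbpl1a was at 22.9 and 23.7 against 65.1 to 98.6 in controls (log2 fold change -1.77 ± 0.09 (SE), adjusted p = 2.83e-07), and Rin2, a Rab5 exchange factor, at 41.3 and 39.7 against 12.4 to 18.6 (log2 fold change 1.42 ± 0.07 (SE), adjusted p = 3.31e-07). In siPdgfra, 39 were higher and 23 lower, beside 32.4% and 23.0% of all genes, and 3 were 2-fold changed against all 4 control groups, beside 3.61%. Rims2 was at 2.47 and 2.20 against 9.15 to 45.3 in controls (log2 fold change -2.86 ± 0.09 (SE), adjusted p = 3.87e-08) and was itself low in siSbp2l, at 5.98 and 5.47. Its partner Rab3a passed in neither knockdown as deposited, and was lower in siSbp2l under either rescaling. Tbc1d9 was at 20.1 and 18.2 against 2.91 to 5.48 (log2 fold change 1.97 ± 0.09 (SE), adjusted p = 1.5e-07), and Micall2, a Rab13 effector, at 0.698 and 0.718 against 2.12 to 4.77 (log2 fold change -1.42 ± 0.12 (SE), adjusted p = 6.49e-06). Micall2 was below an FPKM of 1 in both siPdgfra libraries. Its fall is given as a description, and it is 1 of the 3 counted as 2-fold changed.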

How the data were processed

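The authors sequenced stranded poly(A) mRNA libraries, processed the reads in OmicSoft ArrayStudio and deposited 1 table of FPKM values for 14 libraries on mm10, and per the labels DESeq 2 was among their tools. The file is named for counts, but its values are FPKM as deposited by the authors, so no count test was run. Aligner settings are not given in the sources used here. Columns were assigned to samples by name, and the non-treated pair is named there only by its day.

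Genes were tested if 2 or more of the fitted libraries had an FPKM of 1 or above. The test was limma (version 3.58.1, R version 4.3.3) of log2(FPKM + 1) values with a trended, robust empirical Bayes spread and Benjamini-Hochberg adjustment over all genes tested: 11650 genes in the 12 Day3 libraries and 11874 in all 14. A gene was called at an adjusted p under 0.05, and called at 2-fold if it also changed by a factor of 2. All groups had 2 libraries. The test was checked on simulated data with known changes, in which all libraries of a gene had the same spread. That check does not cover the wider spread of the non-treated pair. Fragment totals were recovered from the steps between low FPKM values, where 88.7% to 92.5% of values of single-transcript genes came out whole within 0.1. Replicates differed beyond counting noise in every pair, so none was counted as a duplicate.

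The members, gene lists and tests were chosen with earlier results of these data known. Named with values were members called at 2-fold anywhere, the 6 largest rises and falls in each comparison, the 6 most abundant, a set of textbook Rabs, and machinery genes called at 2-fold, not all of which are reported here. Machinery lists were prenylation and recycling, exchange factors, GTPase-activating proteins and effectors. Alternatives were other pseudocounts, filters, scalings, fits, a replicate block, single control groups, and leaving out each library. Figures were drawn with matplotlib 3.10.9. Rabs on the chromosome of Rab18 and Rab27b were left out of the promoter windows.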

Additional observations from a re-analysis of the deposited data

Results flagged for a closer look

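The effects of the knockdowns against the same controls differed, by a direct test of siSbp2l against siPdgfra with a change of at least 2-fold, for 8 Rabs (limma, Benjamini-Hochberg adjusted p). Rab31 was lower in siSbp2l by the most, at -1.50 (adjusted p = 1.16e-06), and it was the member that was below its controls in 1 knockdown and above them in the other with each call holding against all 4 control groups. Rab9 showed the same directions at -1.22 (adjusted p = 1.81e-05), its rise in siPdgfra being 0.44. Rab33a was lower in both knockdowns and differed by -1.19 (adjusted p = 0.000237). Rab32, at -1.06 (adjusted p = 9.34e-05), had 4.53 and 5.12 in its NC siRNA #2 libraries and 5.21 and 4.53 in siPdgfra. The 4 Rabs lower in siPdgfra were Rab28 at 1.44 (adjusted p = 6.41e-06), Rab13 at 1.19 (adjusted p = 1.58e-05), Rab6a at 1.06 (adjusted p = 0.000453) and Rab39b at 1.04 (adjusted p = 0.00364).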

How the results depend on the processing

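With 2 libraries a group, some counts moved by over 1.5 times. At an adjusted p under 0.05, fitting only the groups compared gave 21 in place of 33 Rabs at Day3 against Day0, and 21 in place of 10 between the NC siRNAs. For siSbp2l, 17 became 30 without the non-treated group (an alternative chosen after seeing the data) and 11 against mock alone. For the NC siRNAs against cells without siRNA, 13 became 8 at a mean FPKM of at least 5 and 21 without the non-treated group. At 2-fold, siSbp2l had 1 Rab, 3 against NC siRNA #1 alone and 2 against NC siRNA #2 alone. siPdgfra had 3, which became 1 with a pseudocount of 5, 6 with non-treated as the only control, 5 with mock and 6 with NC siRNA #2. The knockdowns differed directly in 8, or 5 with a pseudocount of 5. The NC siRNAs differed in 2, or 0 with a pseudocount of 5 or a mean FPKM of at least 5, and NC siRNAs against no siRNA in 0, or 1 (Rab6b) without the NC siRNA #2 group, also chosen after seeing the data. Against all 4 controls siPdgfra had 2, or 1 with a pseudocount of 5.

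Leaving out 1 library, the counts at an adjusted p under 0.05 ranged from 26 to 37 (Day3 against Day0), 8 to 31 (siSbp2l, 31 and 30 without either non-treated library and 8 and 11 without either siSbp2l library), 19 to 34 (siPdgfra), 17 to 36 (siSbp2l against siPdgfra), 6 to 21 (between NC siRNAs, 21 and 20 without either non-treated library and 6 without either NC siRNA #1 library or NC siRNA #2 replicate 2) and 8 to 29 (NC siRNAs against no siRNA, 29 and 23 without either non-treated library and 8 without NC siRNA #1 replicate 1 or NC siRNA #2 replicate 2). At 2-fold they ranged from 9 to 10, 1 to 1, 3 to 4, 7 to 9, 1 to 3 and 0 to 0 in the same order, and against all 4 controls from 1 to 1 for siSbp2l and 1 to 2 for siPdgfra (1 without mock replicate 1 or siPdgfra replicate 2). A library left alone in its group is assumed to vary like the others.

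Directions reversed for Rab13 (-0.0185) and Rab32 (0.0094) in siSbp2l against mock alone, Rab44 against NC siRNA #2 alone (0.28 in siSbp2l and 0.59 in siPdgfra), Rab6b in siSbp2l against NC siRNA #1 alone (-0.31) and Rab32 in the NC siRNAs against no siRNA without NC siRNA #2 (-0.0589). The cause was not tested. Replicate numbers were not shown to pair libraries, since 4 of 21 pairs of groups correlated above 0.1 (range -0.38 to 0.47). With the replicate block, 32, 15, 26, 24, 10 and 13 Rabs passed an adjusted p of 0.05, the 2-fold counts were 9, 1, 3, 8, 2 and 0, and those against all 4 controls were 1 and 2. The block ended the calls of Rab6b at Day3, of Rab12 and Rab23 in siSbp2l, and of Rab1 and Rab44 between the knockdowns (adjusted p of 0.0509 to 0.0632). The shallowest library, NC siRNA #2 replicate 2, limits Rabs near an FPKM of 0.229.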

Other observations

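Several Rabs below the threshold were nonetheless listed higher at Day0 than in most Day3 libraries. Rab27a, a Rab of secretory granules and exosomes, had an FPKM of 0.522 and 0.688 at Day0 and at most 0.126 at Day3. Rab17, known from polarised epithelia, had 0.913 and 0.998 at Day0, 0.538 and 0.414 in siSbp2l and at most 0.303 in the other Day3 libraries, with 0 in both NC siRNA #2 libraries. In the shallowest library 3 fragments of a 2 kb transcript came to 0.229, and these values were not tested. Of the exocytic Rab3 genes, Rab3b, Rab3c and Rab3d reached at most 0.676 in any library, where Rab3a ran from 17.0 to 93.2.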
